A study of Mus musculus with 12 samples.

Results

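10 genes for enzymes that cut or transfer the acyl group of acyl-CoA were followed through a mouse kidney injury experiment. They are the acyl-CoA thioesterases Acot1, Acot2, Acot3, Acot4, Acot5, Acot9, Acot12 and Acot13, and the acyl-CoA amino acid N-acyltransferases Acnat1 and Acnat2. The members were named one by one, with no measured value in the rule, and all 10 were found among the 55487 genes of the count table.

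RNA sequencing of kidney gave 12 libraries in 4 groups of 3. All mice carried floxed alleles of ALR (gene symbol Gfer) on a C57BL/6 background and were 6 to 8 weeks old, according to the methods of the study. Control mice had the floxed alleles alone, and knockout mice (PT-KO) also carried Ggt1-Cre, a transgene whose promoter is active in the proximal tubule, so other kidney cells keep the gene. Injury (I/R) was bilateral clamping of the renal vessels for 22 min, and kidneys were taken after 24 h of reperfusion. The 4 groups were Ctrl (labelled WT, sham), PT-KO (labelled ALR knockdown, sham), Ctrl+I/R and PT-KO+I/R. The labels name the tissue as kidney cortex and do not tie libraries to single animals, so p-values measure the spread between these libraries. Of the 3 Ctrl libraries, library 3 could be matched to its group but not to 1 sample title.

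Fatty acids enter most reactions as acyl-CoA esters. Acyl-CoA synthetases make the ester, and acyl-CoA thioesterases split it again into the free acid and CoA, so this pair of activities sets how much acyl-CoA a compartment holds. The thioesterases are spread over the cell: Acot1 acts in the cytosol, Acot2 and Acot9 in mitochondria, Acot3, Acot4 and Acot5 in peroxisomes, Acot13 at mitochondria and in the cytosol, and Acot12 in the cytosol on acetyl-CoA. Acnat1 and Acnat2 are peroxisomal enzymes of the bile acid-CoA N-acyltransferase family, and Acnat1 can join fatty acids to taurine. Several of these genes are known in liver as targets of the fatty acid receptor PPARalpha, and the proximal tubule is a kidney segment that lives largely on fatty acid oxidation.

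Library totals ran from 12165089 to 23123693 counts. Levels are given as CPM, the library-scaled count, with TMM factors over the 12 libraries, and fold changes come from edgeR fits to the libraries compared. Gfer itself was not lower in PT-KO (9.97 to 17.1 CPM) than in Ctrl (11.4 to 14.4 CPM), with a log2 fold change of 0.13 (SE 0.20, edgeR adjusted p = 0.761). After injury it was 21.6 to 22.8 CPM in the knockout and 15.3 to 20 CPM in the control, without overlap (0.32, SE 0.13, adjusted p = 0.0723), and it rose with injury in the knockout by 0.64 (SE 0.18, adjusted p = 0.00888). Its count covers exons outside the deleted part and cells without Cre, so it does not test the deletion, and the group names are those of the labels. The female transcript Xist was present in libraries 1 and 2 of Ctrl (19755 to 22402 counts) together with 0 counts of 4 Y-linked genes, while the other 10 libraries had at most 11 Xist counts. Ctrl library 1 also held transcripts of 5 adipocyte markers (28.1 CPM in sum). The sum was 7.02 to 10.9 CPM in PT-KO+I/R, where Cidec alone had 6.77 to 9.48 CPM, and at most 1.10 CPM in the remaining libraries. The summed level of 11 proximal tubule markers was 16079 to 17975 CPM in Ctrl, 16290 to 18379 in PT-KO, 4590 to 10801 in Ctrl+I/R and 3089 to 3776 in PT-KO+I/R. Fewer cells of a type and less RNA per cell cannot be told apart in such bulk libraries, and no marker of that list was at 0 in any group.

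5 of the thioesterase genes lie side by side on the plus strand of chromosome 12 (GRCm38), in the order Acot2 (chr12:83987861-83993873), Acot1 (chr12:84009490-84018371), Acot4 (chr12:84038379-84048601), Acot3 (chr12:84052144-84060402) and Acot5 (chr12:84069325-84076020), within 88.2 kb. Acnat2 (chr4:49379840-49408151) and Acnat1 (chr4:49447105-49473912) lie on the minus strand of chromosome 4 with 39.0 kb between them. Acot12 (chr13:91741512-91786148), Acot13 (chr13:24817948-24831540) and Acot9 (chrX:155262443-155297654) stand alone. Acot4 and Acot3 overlap the antisense transcript 4732463B04Rik, which had 11 to 108 counts per library. Acot12 overlaps the antisense transcript 4833422C13Rik (11 to 345 counts), and whether the counting kept the strand is not given in the sources used here.

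Relatives as close as these could exchange reads, depending on the counting. The coding sequences of Acot1 and Acot2 were identical at 95.6% of aligned bases, with a longest identical run of 273 bases, and those of Acnat1 and Acnat2 at 96.2%, with a run of 200 bases. Of all windows of 100 bases in the GENCODE M21 transcripts of a gene, 12.4% in Acot1, 17.1% in Acot2, 11% in Acnat1 and 14.1% in Acnat2 also occurred in a transcript of another gene. The share was 15.9% in Acot3, 8.24% in Acot4, 7.79% in Acot5 and at most 1.57% in Acot9, Acot12 and Acot13. The most different stretches of 90 coding bases show where the relatives are easiest to tell apart, and differing bases occur elsewhere too. Capitals mark the bases that differ, 14 between Acot1 and Acot2 and 15 between Acnat1 and Acnat2. All 4 stretches lie in the last coding exon, at chr12:84016916-84017005 for Acot1, chr12:83992638-83992727 for Acot2, chr4:49447699-49447788 for Acnat1 and chr4:49380496-49380585 for Acnat2, the latter pair on the minus strand.
Acot1: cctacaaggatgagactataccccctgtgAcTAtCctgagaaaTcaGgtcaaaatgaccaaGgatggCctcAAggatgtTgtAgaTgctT
Acot2: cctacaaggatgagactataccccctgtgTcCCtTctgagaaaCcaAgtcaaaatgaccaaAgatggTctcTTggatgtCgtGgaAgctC
Acnat1: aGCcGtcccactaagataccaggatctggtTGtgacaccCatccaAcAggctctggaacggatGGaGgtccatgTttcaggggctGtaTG
Acnat2: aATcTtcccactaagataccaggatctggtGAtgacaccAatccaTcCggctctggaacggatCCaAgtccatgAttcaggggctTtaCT

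Across the 4 groups, the 3 PT-KO+I/R libraries lay all above or all below the 9 others for 7 of the 10 genes, as they did for 42.4% of 16168 genes. Without Acot5, which passed the count filter only through these libraries, it was 6 of 9. Acot1, Acot2, Acot5, Acot9 and Acnat2 lay above every library of the other groups there, and Acot13 and Acnat1 below every library. Acot12 was high in both knockout groups, with and without injury. Acot3 and Acot4 were highest in Ctrl.

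**Figure D1:**
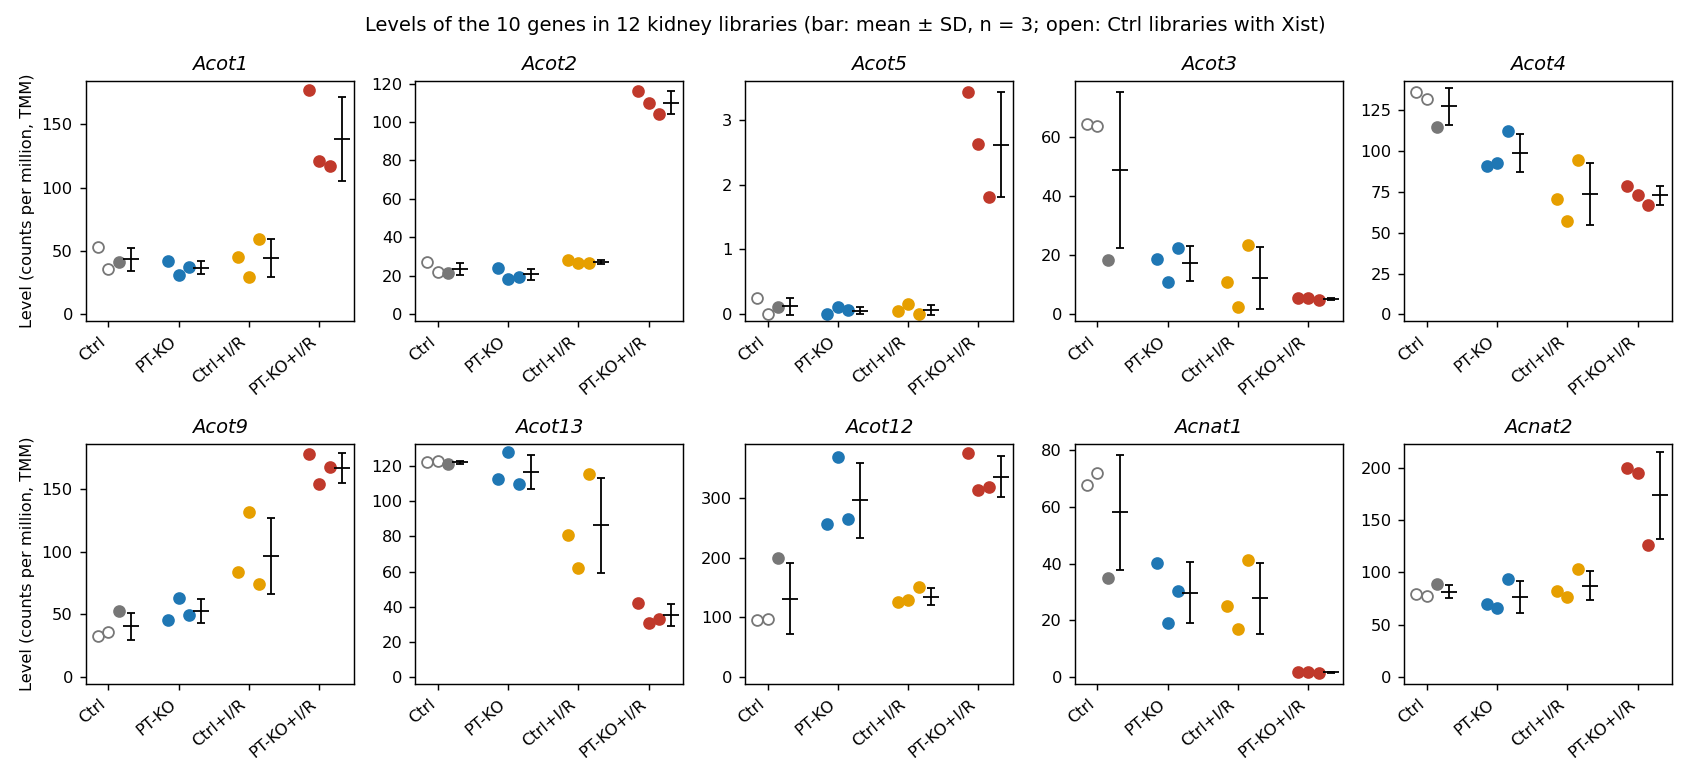
Level of each of the 10 genes in CPM (y axis, linear, 1 panel per gene) in the 4 groups, with 1 point per library, black bars for the mean ± SD of 3 libraries and open points for the Ctrl libraries that carry Xist. The red PT-KO+I/R points lie above every other library for Acot1, Acot2, Acot5, Acot9 and Acnat2 and below every other library for Acot13 and Acnat1.

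Per kilobase of exon, which allows genes to be compared, Acot13 had the highest level in Ctrl at 164 ± 1 CPM per kb (SD, n = 3). Acnat2 (46.8 ± 3.7), Acot12 (39.8 ± 18.2) and Acnat1 (27.3 ± 9.5) followed. Acot4 (19.1 ± 1.7), Acot9 (17.8 ± 4.7), Acot3 (14.2 ± 7.7), Acot1 (11 ± 2.3) and Acot2 (10.8 ± 1.5) came next, and from Acnat2 to Acot2 each gene overlapped its neighbour within 1 SD. Acot5 stood at 0.0795 ± 0.0829. In PT-KO+I/R the order was different: Acot12 (102 ± 10) and Acnat2 (99.5 ± 23.8) led, followed by Acot9 (73.4 ± 5.3), Acot2 (50.1 ± 2.8), Acot13 (47.4 ± 8.1) and Acot1 (35.3 ± 8.5). Acot4 (10.9 ± 0.9), Acot5 (1.72 ± 0.53), Acot3 (1.52 ± 0.12) and Acnat1 (0.773 ± 0.118) were lowest. Gaps larger than the sum of both neighbours' SDs lay between Acot9 and Acot2, between Acot1 and Acot4, between Acot4 and Acot5 and between Acot3 and Acnat1. The plain CPM of the 10 genes summed to 677 ± 17 before and 591 ± 85 after injury in control kidneys, and to 746 ± 49 and 1042 ± 122 in knockout kidneys.

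Injury in control kidneys was read from Ctrl+I/R against Ctrl. Ctrl library 1 and Ctrl library 2 carried Xist and no Ctrl+I/R library did. The comparison is thus not of ischemia alone, and sex and injury cannot be fully told apart in it. Of 9 members with enough counts, Acot9 rose and Acot4 fell, 2 of 9 (22.2%), where 19.4% of the 15567 genes tested were called at an adjusted p under 0.05 (11.4% higher and 7.97% lower). At an unadjusted p under 0.05, 5 of 9 members passed, beside 37.9% of all genes. With a fold threshold (a log2 change beyond 1 either way and an unadjusted p under 0.01), 1 member (Acot9) passed, beside 9.15% of all genes. The median log2 fold change of the members was 0.04, beside -0.01 over all genes tested. Libraries of the groups did not overlap for 3 of the 9, against 43.7% of all genes. A share near the background is no result about the members. Both calls were lost without Ctrl library 1, without Ctrl library 2 or without Ctrl+I/R library 1, where 0 of 9 passed the edgeR test, and 5 of 9 passed without Ctrl+I/R library 4. The share of all genes called in each of these fits is not given beside them, so these counts too are no result about the members.

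Injury in knockout kidneys, PT-KO+I/R against PT-KO, moved 9 of 10 members, 5 up and 4 down, where 65.5% of 15155 genes were called (32.9% higher and 32.7% lower). The rule with a fold threshold passed 8 members and 29.1% of all genes. Acot5 passed the count filter only through the libraries where it is high, so its call is no support, and without it 8 of 9 members were called. The median absolute log2 fold change was 1.73 for the members, Acot5 included, and 0.63 for all genes tested. Without Acot5 the middle absolute change is that of Acot3, whose log2 fold change was -1.72. The rises were of Acot1, Acot2, Acot5, Acot9 and Acnat2, and the falls of Acot3, Acot4, Acot13 and Acnat1. The libraries of the 9 called genes did not overlap between the groups, which held for 70.8% of all genes. That count and the one by the rule with a fold threshold include Acot5, and without it 8 of 9 members did not overlap. Acot12 alone was not called, with a log2 fold change of 0.17 (SE 0.14, edgeR adjusted p = 0.301), and without PT-KO library 2 it was 0.36 (adjusted p = 0.0194).

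Without injury, PT-KO against Ctrl, no member passed the edgeR test (0 of 9), as for 0% of 15291 genes. 4 members had an unadjusted p under 0.05, Acot3, Acot4, Acot12 and Acnat1, as had 2573 of all genes (16.8%), and DESeq2 called 0 members and 458 genes. The rule with a fold threshold passed 1 member, Acot12, and 1.42% of all genes. Libraries did not overlap for Acot12 and Acot4, 2 of 9 members, against 21% of all genes. Without Ctrl library 3, which leaves the 2 libraries with Xist as the only controls, 5 of 9 were called. The share of all genes called in that fit is not given beside it, so the count is no result about the members.

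Between genotypes after injury, with PT-KO+I/R set against Ctrl+I/R, 8 of 10 members were called, 6 higher and 2 lower, where 46.9% of 15281 genes were (22.5% higher and 24.4% lower). The rule with a fold threshold passed 6 members and 18.3% of all genes. Acot1, Acot2, Acot5, Acot9, Acot12 and Acnat2 were higher in the knockout, and Acot13 and Acnat1 were lower. The median log2 fold change was 0.88 for the members and -0.0049 for all genes, and libraries did not overlap for 8 of 10 members against 58.7% of all genes. Acot5 passed the count filter only through its PT-KO+I/R libraries, so its call is no support. Without it 7 of 9 members were called, and 7 of 9 had libraries that did not overlap. The count by the rule with a fold threshold and the median include Acot5. Without it the middle value is that of Acot9, 0.78. The PT-KO+I/R libraries are also those of the injury comparison in knockout kidneys, so the calls of both are not independent. With total counts in place of TMM, the median over all genes moved to -0.21 and the split over all genes from 3444 higher and 3725 lower to 1978 higher and 5080 lower, while 7 members were called in unchanged directions.

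Whether the injury effect itself differed between genotypes was tested as an interaction over all 12 libraries. It passed for 6 of 10 members, where 30.6% of 16168 genes passed (14.3% higher and 16.4% lower), as did 6 by the rule with a fold threshold beside 14.5% of all genes. Acot5 entered this test too only through its PT-KO+I/R libraries, and without it 5 of 9 members passed by either rule. The effect was higher in the knockout for Acot1, Acot2, Acot5 and Acnat2 and lower for Acot13 and Acnat1. For Acot3, Acot4, Acot9 and Acot12 the difference did not pass, with intervals on the log2 scale from -1.62 to 2.18, -0.15 to 0.84, -0.28 to 1.08 and -0.63 to 0.91. Without Ctrl+I/R library 4 the interaction of Acot4 passed at 0.55 (adjusted p = 0.0448).

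**Figure D2:**
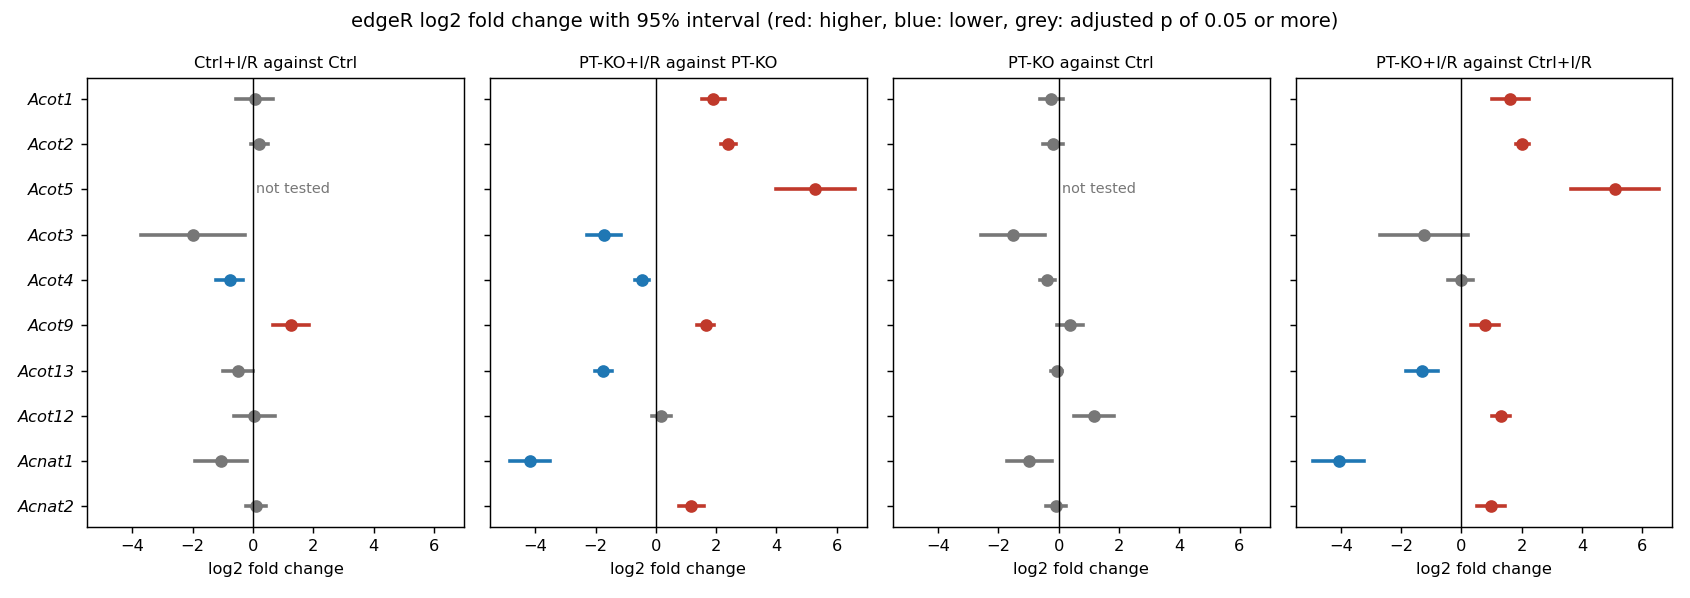
edgeR log2 fold change (x axis) of each gene (y axis) with its 95% interval in the 4 comparisons of 2 groups, coloured red for higher, blue for lower and grey for an adjusted p of 0.05 or more. Acot9 and Acot4 are the coloured genes of the left panel, none is coloured in PT-KO against Ctrl, and Acnat1 lies lowest in both panels that involve PT-KO+I/R, at -4.18 and -4.07.

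Acot1, the cytosolic long-chain thioesterase, measured 53.2, 35.7 and 41.0 CPM in Ctrl and 45.0, 29.6 and 59.4 CPM after injury (Ctrl+I/R). Knockout libraries had 41.8, 31.2 and 37.3 CPM uninjured (PT-KO) and 177, 121 and 117 CPM injured (PT-KO+I/R). The other 3 groups overlapped throughout, and every PT-KO+I/R library lay above all of them. The log2 fold change was 1.62 (SE 0.27, adjusted p = 0.00229) against Ctrl+I/R and 1.90 (SE 0.17, adjusted p = 6.38e-06) against PT-KO, and the interaction was 1.87 (SE 0.34, adjusted p = 0.00205).

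Acot2, the mitochondrial relative, measured 27.3, 22.2 and 21.3 CPM in Ctrl and 28.3, 26.6 and 26.4 CPM after injury (Ctrl+I/R). Knockout libraries had 24.1, 18.5 and 19.6 CPM uninjured (PT-KO) and 116, 110 and 104 CPM injured (PT-KO+I/R). The uninjured and injured controls lay close together, and the 3 PT-KO+I/R libraries lay far above them with little spread among themselves. The log2 fold change was 2.01 (SE 0.09, adjusted p = 5.00e-05) against Ctrl+I/R and 2.40 (SE 0.11, adjusted p = 1.15e-07) against PT-KO, and the interaction was 2.21 (SE 0.17, adjusted p = 1.80e-05). Since Acot1 and Acot2 share stretches of sequence, their summed counts were tested as 1 gene, and the sum rose by 1.78 against Ctrl+I/R (SE 0.19, adjusted p = 0.000422). The ratio of Acot1 to Acot2 counts within a library, which no library scaling touches, was 1.61 to 1.94 in Ctrl, 1.69 to 1.90 in PT-KO, 1.11 to 2.25 in Ctrl+I/R and 1.10 to 1.52 in PT-KO+I/R. It was below PT-KO in every PT-KO+I/R library (exact two-sided permutation p = 0.1, below which 3 against 3 libraries cannot go) and overlapped Ctrl+I/R (exact p = 0.3).

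Acot5, a peroxisomal thioesterase, was nearly silent outside PT-KO+I/R, with 5, 0 and 2 counts in Ctrl, 0, 2 and 1 in PT-KO and 1, 3 and 0 in Ctrl+I/R. It had 40, 59 and 28 counts in PT-KO+I/R, or 1.81 to 3.42 CPM. Scaled to library size, the summed counts were 36.7-fold those of Ctrl+I/R (95% exact Clopper-Pearson interval 14.0 to 137, counting error only) and 43.2-fold those of PT-KO (14.5 to 212). The edgeR log2 fold changes of 5.09 and 5.29 (adjusted p = 0.000784 and 3.00e-05) depend on the prior count for a gene this low. Its shared windows occur in Acot3, Acot1, Acot6 and 4732463B04Rik, and of the 3 thioesterases among these Acot1 rose in the same libraries while Acot3 and Acot6 were at their lowest mean.

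Acot3, another peroxisomal thioesterase, measured 64.3, 63.8 and 18.3 CPM in Ctrl and 10.9, 2.56 and 23.5 CPM after injury (Ctrl+I/R). Knockout libraries had 18.6, 10.8 and 22.3 CPM uninjured (PT-KO) and 5.56, 5.39 and 4.77 CPM injured (PT-KO+I/R). The high Ctrl values were those of the libraries with Xist, and Ctrl library 3 lay inside the PT-KO range. The fall against PT-KO was called, at -1.72 (SE 0.25, adjusted p = 0.000186). Against Ctrl+I/R, where library 2 alone was below all PT-KO+I/R libraries, the log2 fold change of -1.24 was not called (SE 0.64, adjusted p = 0.143). Leaving out that library gave -1.73 (adjusted p = 0.00277).

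Acot4, which splits succinyl-CoA and other dicarboxylic acyl-CoAs, measured 136, 132 and 115 CPM in Ctrl and 70.4, 57.0 and 94.6 CPM after injury (Ctrl+I/R). Knockout libraries had 91.2, 92.8 and 112 CPM uninjured (PT-KO) and 78.6, 73.1 and 66.8 CPM injured (PT-KO+I/R). All Ctrl libraries were above all libraries of the other groups. The higher Ctrl values were those of the libraries with Xist. The fall with injury was -0.78 in control kidneys (SE 0.19, adjusted p = 0.0316) and -0.45 in knockout kidneys (SE 0.11, adjusted p = 0.00386). The call in control kidneys was lost in 4 of the 6 fits that left out 1 library. The injured groups overlapped, with a difference of -0.03 and an interval of -0.45 to 0.39.

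The neighbours on chromosome 12 thus did not move together. Acot2 and Acot1 at the start of the row and Acot5 at its end rose in PT-KO+I/R, while Acot4 and Acot3 between them fell against PT-KO. Acot6, which follows Acot5 on the same strand and is no member (it was chosen after its values were seen), measured 11.3 to 13.4 CPM in PT-KO+I/R and 15.5 to 19.8 in PT-KO, a fall of 0.53 on the log2 scale (SE 0.14, adjusted p = 0.00607). Within a library, the ratio of Acot2 to Acot4 counts, a pair chosen with these values known, was 0.169 to 0.201 in Ctrl, 0.175 to 0.264 in PT-KO, 0.280 to 0.467 in Ctrl+I/R and 1.48 to 1.56 in PT-KO+I/R. The ratio of Acot3 to Acot4 was 0.159 to 0.484 in Ctrl, 0.0449 to 0.248 after injury there, 0.117 to 0.204 in PT-KO and 0.0707 to 0.0736 after injury in the knockout, which overlapped the injured controls.

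**Figure D3:**
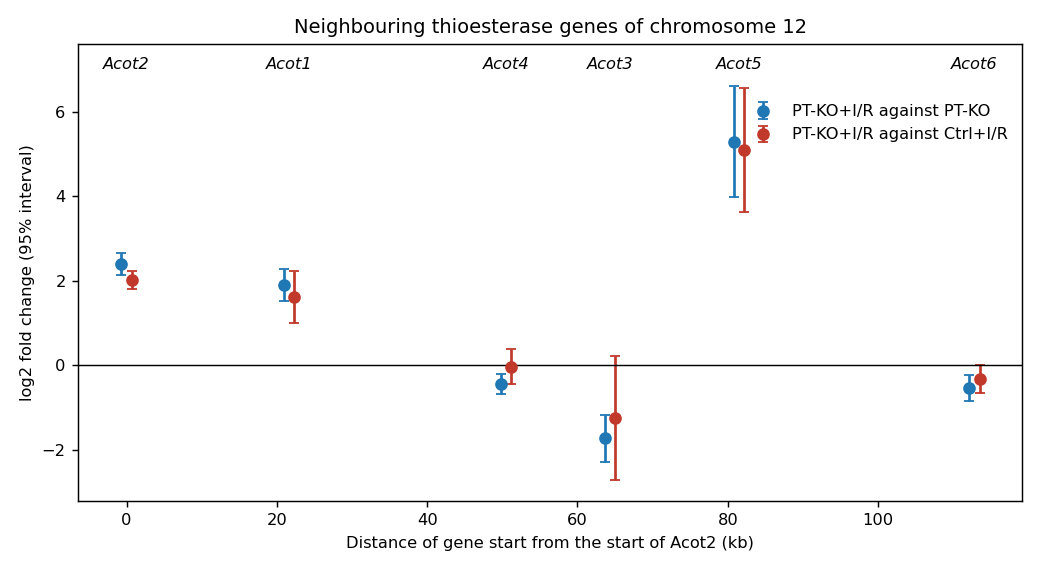
edgeR log2 fold change with its 95% interval (y axis) of the neighbouring thioesterase genes against the distance of each gene start from that of Acot2 in kb (x axis), for PT-KO+I/R against uninjured knockout (blue) and injured control (red). Acot2, Acot1 and Acot5 lie above 0 in both comparisons, and Acot4 and Acot3, between them, lie at or below 0.

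Promoter windows of 300 bases (RefSeq, GRCm38.p6, 250 bases before to 50 after the start) matched 9 of the 10 genes. The direct repeat that PPARalpha binds with RXR was searched on both strands as a pair of AGGTCA half-sites with 1 base between them, found in 0.0396% of 32851 windows, and more loosely as a pair of AGGNCA, found in 0.381%. Neither form occurred in a window of the 9 genes, which says only that these letters are not in this stretch. The half-site AGGTCA occurred in 16.3% of all windows and in those of 4 genes, Acot3, Acot4, Acot5 and Acot12. The stretches from 80 bases before to 5 after the start are shown for the 3 neighbours that rose together, with half-sites in capitals, at chr12:83987781-83987865 for Acot2, chr12:84009422-84009506 for Acot1 and chr12:84069244-84069328 for Acot5, all on the plus strand. Only the Acot5 stretch holds a half-site, across its start.
Acot2: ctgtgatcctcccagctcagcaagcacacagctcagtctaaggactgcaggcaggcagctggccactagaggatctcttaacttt
Acot1: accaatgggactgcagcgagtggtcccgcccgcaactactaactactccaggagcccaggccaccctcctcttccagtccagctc
Acot5: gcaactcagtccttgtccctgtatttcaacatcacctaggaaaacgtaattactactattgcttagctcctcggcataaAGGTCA

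Acot9, a mitochondrial thioesterase, measured 32.6, 36.3 and 52.5 CPM in Ctrl and 84.2, 132 and 74.2 CPM after injury (Ctrl+I/R). Knockout libraries had 45.9, 63.4 and 49.2 CPM uninjured (PT-KO) and 178, 154 and 168 CPM injured (PT-KO+I/R). Injured libraries lay above uninjured ones in both genotypes, and the knockout above the control after injury. The rise with injury was 1.26 in control (SE 0.26, adjusted p = 0.0212) and 1.65 in knockout kidneys (SE 0.12, adjusted p = 1.92e-06). The call in control kidneys was lost in 3 of the 6 fits that left out 1 library. The difference after injury was 0.78 (SE 0.20, adjusted p = 0.0137), and it was not called without Ctrl+I/R library 1 (0.68, adjusted p = 0.0593), with total counts (0.57, adjusted p = 0.0565) or by the rule with a fold threshold.

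Acot13, a small thioesterase of the hotdog fold family that acts on medium- and long-chain acyl-CoAs, measured 122, 123 and 121 CPM in Ctrl and 81.1, 62.1 and 115 CPM after injury (Ctrl+I/R). Knockout libraries had 113, 128 and 110 CPM uninjured (PT-KO) and 42.1, 30.6 and 33.1 CPM injured (PT-KO+I/R). The Ctrl libraries were nearly alike, and the PT-KO+I/R libraries lay below all others. The fall was -1.30 against Ctrl+I/R (SE 0.23, adjusted p = 0.00324) and -1.74 against PT-KO (SE 0.12, adjusted p = 1.33e-06), with an interaction of -1.23 (SE 0.26, adjusted p = 0.00496). None of its 100-base windows occurs in a transcript of another gene.

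Acot12, the cytosolic acetyl-CoA hydrolase, measured 95.9, 97.2 and 200.1 CPM in Ctrl and 125, 128 and 150 CPM after injury (Ctrl+I/R). Knockout libraries had 256, 369 and 265 CPM uninjured (PT-KO) and 376, 314 and 318 CPM injured (PT-KO+I/R). Among the 10 genes it was the 1 in which every knockout library lay above every control library, with and without injury. After injury the difference was 1.31 (SE 0.13, adjusted p = 0.000353). Without injury it was 1.17 (SE 0.29) and did not pass (adjusted p = 0.195), and the lower Ctrl values were those of the libraries with Xist. With both of these left out, the difference was 0.56.

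Acnat1, which conjugates fatty acids to taurine, measured 67.7, 71.8 and 34.7 CPM in Ctrl and 25.0, 16.8 and 41.4 CPM after injury (Ctrl+I/R). Knockout libraries had 40.3, 18.9 and 30.2 CPM uninjured (PT-KO) and 1.80, 1.78 and 1.35 CPM injured (PT-KO+I/R). The higher Ctrl values were those of the libraries with Xist, and Ctrl library 3 lay inside the PT-KO range. Acnat1 had 21 to 40 counts in the PT-KO+I/R libraries, where the other groups had 321 to 1346. The fall was -4.07 against Ctrl+I/R (SE 0.37, adjusted p = 0.000287) and -4.18 against PT-KO (SE 0.30, adjusted p = 1.55e-06), and the interaction was -3.10 (SE 0.56, adjusted p = 0.00197).

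Acnat2, its neighbour and close relative, measured 79.0, 77 and 89.0 CPM in Ctrl and 82.6, 76.2 and 103 CPM after injury (Ctrl+I/R). Knockout libraries had 69.6, 65.5 and 93.9 CPM uninjured (PT-KO) and 200, 195 and 126 CPM injured (PT-KO+I/R). It moved the other way: every PT-KO+I/R library was above all others. The rise was 0.98 against Ctrl+I/R (SE 0.20, adjusted p = 0.00533) and 1.18 against PT-KO (SE 0.19, adjusted p = 0.000340), with an interaction of 1.09 (SE 0.27, adjusted p = 0.00971). By the rule with a fold threshold the difference from Ctrl+I/R was not called. Whether reads were exchanged between the relatives was not tested. The log2 fold change of the summed counts in PT-KO+I/R was 0.60 relative to Ctrl+I/R (SE 0.22, adjusted p = 0.0548) and 0.72 relative to PT-KO (SE 0.19, adjusted p = 0.00677).

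The ratio of Acnat1 to Acnat2 counts within a library was 0.391 to 0.933 in Ctrl, 0.289 to 0.578 in PT-KO, 0.220 to 0.401 in Ctrl+I/R and 0.00900 to 0.0108 in PT-KO+I/R. Here too Ctrl library 3 (0.391) lay inside the PT-KO range, and the Ctrl libraries with Xist above it. The mean log2 ratio was -6.70 in PT-KO+I/R and -1.74 in Ctrl+I/R, a difference of -4.96 without overlap (exact p = 0.1, again the lowest possible).

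**Figure D4:**
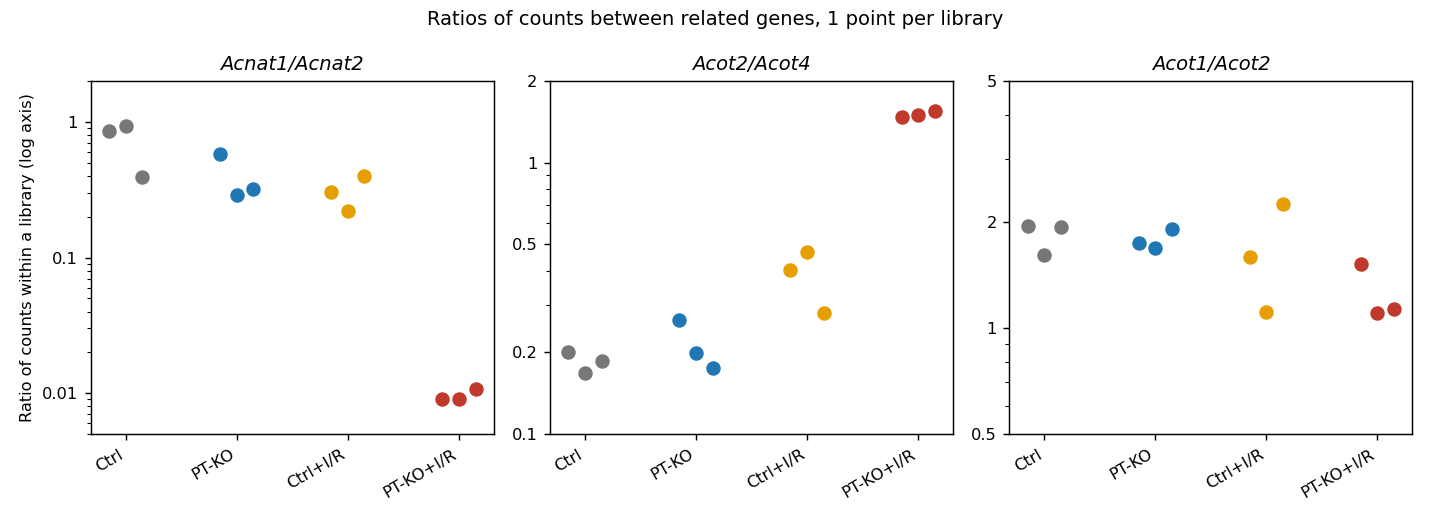
Ratio of the counts of 2 related genes within each library (y axis, logarithmic) in the 4 groups, with 1 point per library, for Acnat1 to Acnat2, Acot2 to Acot4 and Acot1 to Acot2. In PT-KO+I/R the first ratio is 0.00900 to 0.0108 and the second 1.48 to 1.56, while the third overlaps the Ctrl+I/R range.

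The 3 Ctrl+I/R libraries differed in injury markers, and their order is given beside the members as a description without a test. The summed level of the 4 injured tubule markers Havcr1, Lcn2, Krt20 and Sox9 was 556 CPM in library 4, 1075 in library 1 and 2635 in library 2, against 4840 to 6352 in PT-KO+I/R and at most 8.57 in uninjured libraries. In that order of libraries, Acot9 was 74.2, 84.2 and 132 CPM and Acot13 was 115, 81.1 and 62.1 CPM, so that the library with the highest marker level was the closest to PT-KO+I/R for both. Acot1, with 59.4, 45.0 and 29.6 CPM, and Acnat2, with 103, 82.6 and 76.2 CPM, went away from their PT-KO+I/R levels. Acot2 (26.4, 28.3 and 26.6 CPM) and Acot12 (150, 125 and 128 CPM) did not follow that order. Acnat1 (41.4, 25.0 and 16.8 CPM), Acot3 (23.5, 10.9 and 2.56 CPM) and Acot4 (94.6, 70.4 and 57.0 CPM) descended in it, and Acot5 had 0, 1 and 3 counts. For Acnat1, Acot3 and Acot5 the library with the highest marker level was again the closest to PT-KO+I/R. The proximal tubule sum was 10801, 8094 and 4590 CPM in those libraries, and the part of injury markers or tubule content in the members' values was not tested.

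Other enzymes of acyl-CoA handling moved by gene rather than as 1 group when the injured genotypes were compared. Beside the 46.9% of all genes called there (22.5% higher and 24.4% lower), the list counts are a description. Of 7 other acyl-CoA thioesterases tested, 1 rose and 2 fell, with a median log2 fold change of -0.32. Baat, which stood in this list too, is counted below with the acyltransferases. Acot11, which prefers long-chain acyl-CoA, fell by 1.78 (SE 0.29, adjusted p = 0.00228) from 20.7 to 42.1 CPM in Ctrl+I/R to 6.45 to 9.50 CPM in PT-KO+I/R, and the peroxisomal Acot8 rose by 0.58 (SE 0.11, adjusted p = 0.00411). All 3 other amino acid N-acyltransferases were called lower, but the call of Baat does not count as support, which leaves Glyat and Keg1. Baat, which conjugates bile acids, fell by 2.24 (SE 0.53, adjusted p = 0.0105) and Glyat, which conjugates glycine, by 0.43 (SE 0.15, adjusted p = 0.0424). Keg1, a Glyat relative of the kidney, fell by 5.41 (SE 0.28, adjusted p = 6.39e-05), from 1439 to 2248 CPM in Ctrl+I/R to 32.3 to 56.5 CPM. Acnat2 thus rose while Acnat1, Glyat and Keg1 fell.

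Of 18 acyl-CoA synthetases tested in that comparison, 4 rose and 6 fell, with a median of -0.09. The 4 that rose are named here after their values were seen. They were Acsbg1 (1.52, adjusted p = 0.0407), Acsl4 (1.44, adjusted p = 0.000936), Acsl1 (0.92, adjusted p = 0.0356) and Slc27a4 (0.66, adjusted p = 0.00217). The medium-chain synthetase Acsm5 fell by 2.41 (SE 0.36, adjusted p = 0.00151), the propionyl-CoA synthetase Acss3 by 2.00 (SE 0.39, adjusted p = 0.00463) and the acetyl-CoA synthetase Acss2 by 1.68 (SE 0.27, adjusted p = 0.00222). Of 13 genes for the synthesis, breakdown and transport of CoA, 3 rose and 2 fell, with a median of -0.23. The CoA hydrolase Nudt8 (1.07, SE 0.35, adjusted p = 0.0374) passed the count filter only through PT-KO+I/R, with 49 counts against 21 to 27 in each other group, so its call is no support. Among the other called genes, Ppcs (0.78, SE 0.14, adjusted p = 0.00351) and the pantothenate kinase Pank3 (0.70, SE 0.14, adjusted p = 0.00564) rose, and the CoA carrier Slc25a17 (-0.53) and the pantothenate kinase Pank1 (-0.47), both named after their values were seen, fell.

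Of 24 PPARalpha targets tested, 14 rose and 1 fell in the injured knockout relative to Ctrl+I/R, with a median of 0.64. In Ctrl+I/R against Ctrl 3 of 23 were called, beside 19.4% of all genes, and the difference between the comparisons is not read from these counts. The lipid droplet protein Plin2 rose by 4.74 (SE 0.44, adjusted p = 0.00031), from 78.8 to 279 CPM to 4268 to 5142 CPM. Pdk4, a kinase that restrains pyruvate dehydrogenase, rose by 4.62 (SE 0.37, adjusted p = 0.000201), and the transcription factor Creb3l3 by 3.06 (SE 0.72, adjusted p = 0.01). Creb3l3 had 52 counts in PT-KO+I/R and 7 to 11 in each other group, so it passed the count filter only where it is high and its call is no support. Of the 24 targets 17 lay above 0, and this count, the 14 that rose and the median include Creb3l3. Acadm was the target that fell (-0.77, adjusted p = 0.0401). Cyp4a10 (-0.24, adjusted p = 0.549) and Cyp4a14 (-1.39, adjusted p = 0.115) were not called. Acadm, Cyp4a10 and Cyp4a14 are named after their values were seen. Of 8 nuclear receptors and partners that sense fatty acids, 3 rose and 1 fell. The receptor gene Ppara was 33.4 to 66.3 CPM in Ctrl+I/R and 91.4 to 127 CPM in PT-KO+I/R, a rise of 1.17 (SE 0.25, adjusted p = 0.00675), and its level in PT-KO+I/R overlapped that of PT-KO (93.5 to 111 CPM). The coactivator Ppargc1a fell by 0.84 (SE 0.23, adjusted p = 0.0179) and Rxra rose by 0.70 (SE 0.11, adjusted p = 0.00177). Beside these, 6 of 11 proximal tubule markers fell and none rose, with a median of -1.42, and their part in the members' changes was not tested. 3 markers of hepatocytes, cells in which many of these enzymes are abundant, summed to 16.4 to 67.0 CPM in Ctrl+I/R and 21.4 to 40.8 CPM in PT-KO+I/R. Within that sum Alb, the albumin gene, rose by 2.79 (SE 0.25, adjusted p = 0.000265), from 1.71 to 2.72 CPM to 12.7 to 19.2 CPM, while Serpina1a was -1.39 (adjusted p = 0.0759). The part of hepatocyte transcripts in the members' values was not tested.

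**Figure D5:**
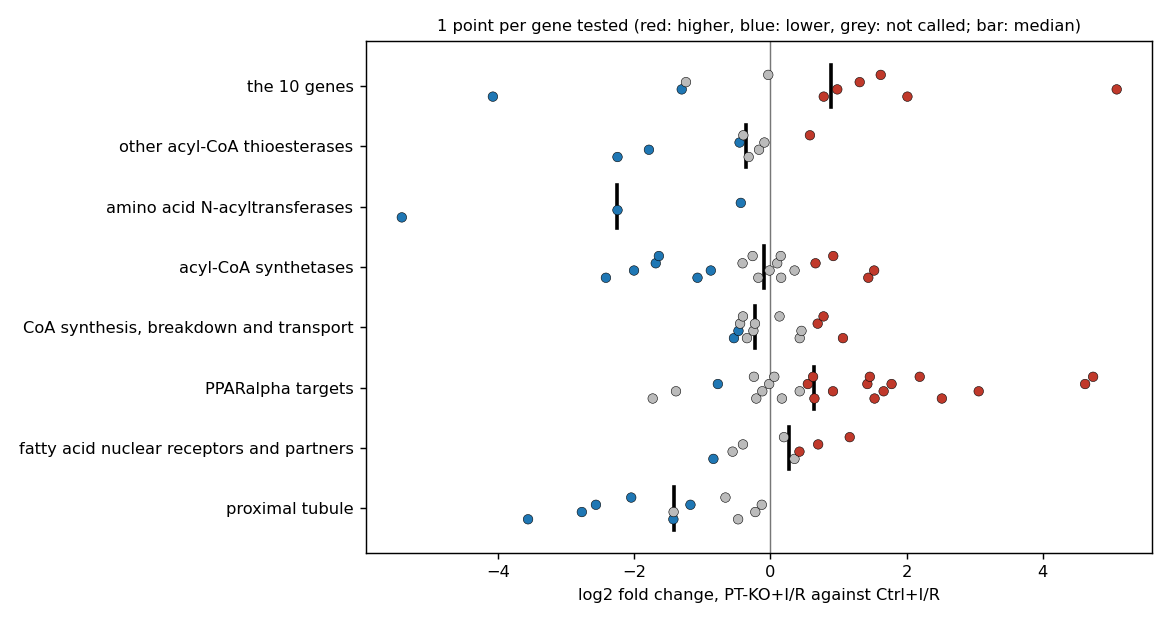
edgeR log2 fold change after injury, knockout over control (x axis), of every tested gene of the 10 members and of 7 gene lists (y axis), coloured red for higher, blue for lower and grey for not called, with a bar at the median of each list (Baat and Vnn1 each stand in 2 of them). The members reach from -4.07 (Acnat1) to 5.09 (Acot5) around a median of 0.88, and the proximal tubule markers lie below 0 around a median of -1.42.

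Genes whose log2 CPM followed a member most closely were ranked by Pearson r over the 12 libraries among 16168 genes, as a description only, since the libraries form 4 groups that set most of r. Acot13 was followed by the transporters Slc6a13 (0.997) and Slc23a1 (0.993) and by Hsd11b2 (0.992), and Acnat1 by Sema3b (0.990), Ptprs (0.989) and Shmt1 (0.989). Acot2 was closest to C77080 (0.992), Camk2d (0.990) and Lemd2 (0.987), and Acot9 to Dusp22 (0.992), Eif5a (0.991) and Eif2s1 (0.990). Acot12 was closest to Aldh3a2 (0.978), Frmd4b (0.976) and Etv6 (0.963), and Acot3 to Trim2 (0.978), Catsperd (0.977) and Capn6 (0.961). Acot5 was closest to Gm43062 (0.979), Prr14 (0.969) and Slc25a22 (0.964), and Acot1 to Cyb561d1 (0.968), Gm10524 (0.967) and Tprgl (0.955). Acot4 was closest to Pla1a (0.963), Acaa2 (0.959) and Gm13910 (0.959), and Acnat2 to Rragc (0.957), Arhgap23 (0.952) and Rtl8b (0.946).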

How the data were processed

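Kidney RNA was extracted by the authors with TRIzol and sequenced on an Illumina instrument, and they deposited raw read counts per Ensembl gene for 12 libraries. The submitters' notes name HISAT2 2.0.4 and mm10. The count program, annotation and strand setting are not given in the sources used here. Of 55487 identifiers, 55141 had a symbol in GENCODE M21. Genes passing filterByExpr were scaled by TMM and tested with the quasi-likelihood test of edgeR 4.0.16 (R 4.3.3), on the 6 libraries of 2 groups or on all 12 for the interaction. A call means an adjusted p (Benjamini-Hochberg, over all genes tested) under 0.05. Standard errors (SE) and 95% intervals came from the same fits. The methods were tested on simulated data. The members and gene lists were chosen with earlier results of these data known. Named were all members, Gfer, for each list at most the 3 called genes with the largest change in the comparison described, and the 3 genes most like each member. Further genes are marked in the text as named after their values were seen. Alternatives were DESeq2 1.42.0, total counts, no filter, 1 fit to 12 libraries, a block for the replicate number, leave-one-out fits, 1 fit to the 10 libraries other than the Ctrl pair with Xist, the study's rule for the injured genotypes in every comparison (absolute log2 fold change over 1, p under 0.01), its rule for injured controls (p under 0.05, added after seeing the data) and summed counts of close relatives. Residuals of the 12 same-numbered pairs of libraries had a median correlation of -0.0207, and the numbers were not taken as pairs. Spread between replicates was 8.20 to 66.3 times the counting error (chi-square per gene), so no 2 libraries were alike within sampling noise. Intervals on counts cover counting error only.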

Additional observations from a re-analysis of the deposited data

Results flagged for a closer look

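6 members had an effect of I/R that differed between knockout and control kidneys by the interaction test of edgeR over 12 libraries. The difference (effect in knockout minus effect in control, log2) was 1.87 for Acot1, 2.21 for Acot2, 6.12 for Acot5 and 1.09 for Acnat2, and it was -1.23 for Acot13 and -3.10 for Acnat1. Without Ctrl library 1, which carried Xist and adipocyte transcripts, the difference for Acot5 was 5.07 and no longer passed (adjusted p = 0.0757). Acot5 entered the test only through its PT-KO+I/R libraries, so its call is no support. With both Ctrl libraries that carry Xist left out, Ctrl is 1 library that is assumed to vary like the other groups. The differences then were 1.78 for Acot1, 2.05 for Acot2, 1.21 for Acnat2, -1.25 for Acot13 and -3.84 for Acnat1, all with an adjusted p under 0.05 (the highest was 0.0446), and 5.93 for Acot5 (adjusted p = 0.0570).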

How the results depend on the processing

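Over 654 refits of members' log2 fold changes, 587 kept direction and call, 22 lost a call, 28 gained one and 17 turned sign. The members called numbered, for Ctrl+I/R against Ctrl (2 as reported), 4 with no filter or 1 fit to 12 libraries, 5 with the replicate block, 5 at an unadjusted p under 0.05 (the study's rule there, added after seeing the data), 1 with a fold threshold (absolute log2 fold change over 1, p under 0.01), 0 in the 10 libraries other than the Ctrl pair with Xist, and 0 to 5 leaving out 1 library. For PT-KO against Ctrl (0 as reported) they numbered 2 with no filter, 5 with the block, 1 with the fold threshold and 0 to 5 leaving out 1 library. For the injured genotypes (8 as reported) they numbered 5 with the block and 5 of 8 with relatives summed, and for the interaction 4 with the block. The calls lost with the block were those of Acot9 (0.81, adjusted p = 0.0893), Acot13 (-1.18, 0.0639) and Acnat2 (0.84, 0.125) between the injured genotypes and of Acot13 (-1.10, 0.0595) and Acnat2 (0.97, 0.0794) in the interaction. The numbers do not pair the libraries. Ctrl library 3, whose column number no Ctrl sample title has, got a block of its own, so the block fits that involve Ctrl rest on the Ctrl pair with Xist for the controls. In the 10 libraries Ctrl is 1 library, assumed to vary like the other groups.

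All genes called, in the same order of comparisons, numbered 1424, 217 and 2804 with the fold threshold, and 4417 for injury in the knockout and 2352 for the interaction. With the block they numbered 1378 for PT-KO against Ctrl, 1683 for the injured genotypes and 3215 for the interaction. For Ctrl+I/R against Ctrl they numbered 5907 at an unadjusted p under 0.05, 4938 in 1 fit to 12 libraries, 1219 in the 10 libraries and 379 to 4061 leaving out 1 library. For PT-KO against Ctrl they numbered 458 with DESeq2, 1 with total counts, 388 with no filter and 0 to 1930 leaving out 1 library, and the interaction had 2539 in the 10 libraries. For Ctrl+I/R against Ctrl the count over all genes is not given here with no filter or with the block. The member counts of those fits are therefore no result about the members. The causes were not tested.

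The values that turned sign were not called and lay between -0.098 and 0.38 as reported. With the block, Acot1 was -0.25 in Ctrl+I/R against Ctrl and the Acot12 interaction -0.30. In the 10 libraries, Acot12 was -0.59 and Acnat2 -0.048 in Ctrl+I/R against Ctrl, Acot9 was -0.00015 in PT-KO against Ctrl and the Acot3 interaction was -1.14. Leaving out 1 library gave ranges of -0.21 to 0.29 for Acot1, -0.13 to 0.50 for Acot12 and -0.035 to 0.21 for Acnat2 in Ctrl+I/R against Ctrl. They were -0.28 to 0.0060 for Acnat2 in PT-KO against Ctrl, -0.20 to 0.18 for Acot4 between the injured genotypes, and -0.21 to 1.11 for Acot3 and -0.30 to 0.33 for Acot12 in the interaction.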
